A study of Mus musculus with 2 samples.

Results

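The genes described here drive cells through the division cycle or copy their DNA, and they were followed in Müller glia (MG), the main glia of the retina, of undamaged and of light damaged mice. They were taken from the array's annotation by name: cyclins of the A, B, D and E families, cyclin-dependent kinases (CDKs), genes named Cdkn (the CDK inhibitors and a few others) except Cdkn1a, the E2F transcription factors, the Mcm genes, and Mki67, Pcna, Top2a, Cdc20, Plk1, Aurka, Aurkb, Bub1, Rrm1, Rrm2, Tyms and Rb1. This gave 67 of the 20412 genes with a value, 10 of them through a current name that the older annotation lists differently (Cdc2a for Cdk1, for example). They were read by 2 to 40 probe sets each (median 10). No probe set was assigned to Ccnb1 alone, and that gene was not analysed here.

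MG were purified by fluorescence from adult retinas. In the reporter line a tamoxifen-inducible Cre under the Rlbp1 promoter switches on tdTomato in MG, and light damage mice were its cross to albino Swiss Webster mice, which carry the leucine form of Rpe65. A Hes5-GFP line crossed to the same strain also served as a reporter, while the methods describe sorting of the tdTomato fraction. The data statement calls the undamaged control MG wild type, in the methods the term for the uncrossed Rlbp1 reporter line. Figure legends that cover both undamaged and damaged retinas name only the crossed mouse. The array labels name no strain, and strain background and light damage cannot be told apart. The control array carried RNA of 12 pooled retinas and the light damage array RNA of 10 pooled retinas, taken a week after 8 hours at 10000 lux. With 1 array per condition no difference has a replicate check, no test was made, and the number of arrays limits the precision.

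Cells enter the cycle when mitogens raise D-type cyclins, which bind Cdk4 and Cdk6 and phosphorylate the retinoblastoma protein Rb1. E2F factors are then released and switch on cyclin E and the genes of DNA replication, after which A- and B-type cyclins with Cdk1 take the cell through mitosis. CDK inhibitors oppose each step. Adult MG of mammals rest outside the cycle and seldom divide after injury, whereas those of fish re-enter it and make new neurons.

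Promoters of some of these genes are shown because they hold sequence words known from cell cycle promoters, a feature the choice by name did not use. RefSeq windows of 300 bases (250 before to 50 after a start site, GRCm38.p6) were matched by symbol for 53 of the 67 genes and searched on both strands for an E2F word (TTTCCCGC, TTTGGCGC, TTTGCCGC or TTTCGCGC), for the cell cycle homology word CHR (TTTGAA or TTCGAA) and for CCAAT. An E2F word stood in the windows of 5 of 12 S phase genes (41.7%) and of 3 of 6 genes among Rb1 and the E2F factors, 1 of 5 G1 genes and 1 of 8 genes of G2 and M phase, against 2.61% of all 27025 genes with a window (2.26% of all 32851 windows). CHR and CCAAT together stood in 8 of 8 genes of G2 and M phase, 3 of 6 among Rb1 and the E2F factors, 2 of 12 S phase genes and none of 5 G1 genes, against 8.61% of all genes (7.52% of all windows). The words were therefore shared between roles. Among the genes without a window, which were not searched, were Rb1, E2f4, E2f5, Ccnd1, Ccnd2, Ccne2, Mcm4, Ccna2 and Aurkb. The first pair below are stretches before the start sites of Mcm6 (chromosome 1, chr1:128359733-128359827, minus strand) and Mcm5 (chromosome 8, chr8:75109344-75109379, plus strand), with E2F words in capitals, overlapping words running together. The second pair belong to Cdc20 (chromosome 4, chr4:118437344-118437408, minus strand), with CCAAT and CHR in capitals, and to Cdk1 (chromosome 10, chr10:69352913-69353132, minus strand), with all 3 words in capitals, where ATTGG is CCAAT on the other strand.
Mcm6: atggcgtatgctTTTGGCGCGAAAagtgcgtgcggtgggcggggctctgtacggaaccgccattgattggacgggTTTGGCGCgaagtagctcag
Mcm5: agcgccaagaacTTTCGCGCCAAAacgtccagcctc
Cdc20: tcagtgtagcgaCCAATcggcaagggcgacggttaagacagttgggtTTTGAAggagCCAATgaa
Cdk1: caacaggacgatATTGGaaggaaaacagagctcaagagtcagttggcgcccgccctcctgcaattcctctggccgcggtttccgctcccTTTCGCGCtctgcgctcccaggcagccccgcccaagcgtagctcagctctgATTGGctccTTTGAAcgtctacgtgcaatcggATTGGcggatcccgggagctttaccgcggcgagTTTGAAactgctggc

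A match is a string of letters and not a measured binding site. S phase genes with an E2F word in the window had a median difference of −0.28 (5 genes, from −0.91 to −0.08) and those without had one of −0.18 (7 genes, from −0.86 to 0.35), ranges that overlapped widely.

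Across all 67 genes the arrays were much alike. A gene's value is the difference of log2 levels, light damage minus control, taken as the median of its probe sets, and its spread is the SD over those probe sets, which is technical because all lie on the same arrays. A mean level of 5 or more over both arrays was reached by 60 of the 67 genes, and the others were Top2a, Bub1, Mki67, Plk1, Cdkn3, Ccnb3 and Ccnb1ip1. Of the 60, 1 stood higher by 1 or more (Ccnd3) and 1 stood lower by 1 or more (Cdkn2c). Over all 16534 genes at that level 1.75% were higher and 3.47% lower by as much (289 and 574 genes), a split that became 359 and 429 genes after quantile normalization while the counts of cell cycle genes stayed at 1 and 1. At a smaller step, 6 of the 60 were higher by 0.5 or more and 9 were lower, where 11% and 17.2% of all genes were. The 60 had a median of −0.12 (SD over genes 0.46), beside −0.03 for all genes. These counts and medians lay close to those of the whole array.

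**Figure D1:**
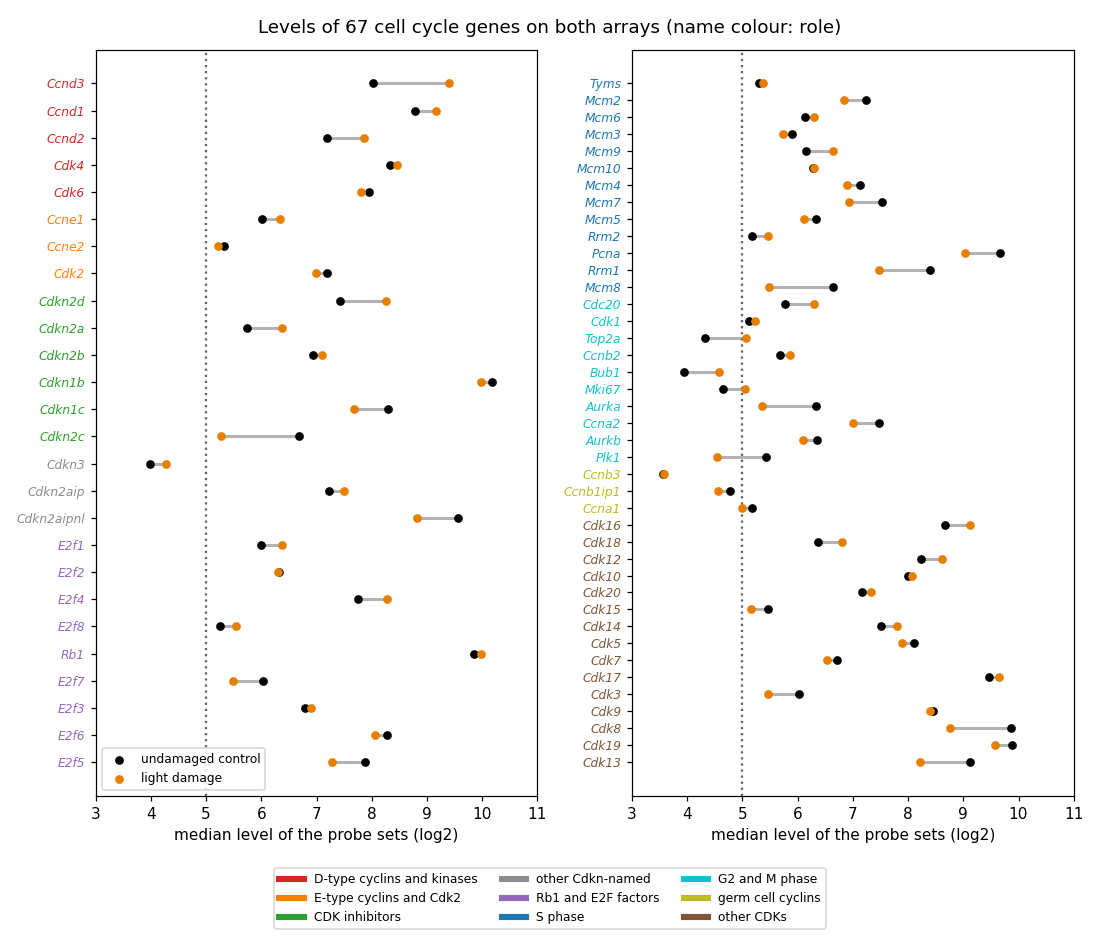
Median log2 level of the probe sets of each of the 67 genes (x axis) for control (black) and light damage (orange), with gene names coloured by role and the level of 5 dotted. Ccnd3 and Cdkn2c have the longest lines, and most genes of G2 and M phase lie near or under 6 on both arrays.

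Signal limited what could be read for the mitotic genes. Olfactory and vomeronasal receptor genes, which retina is not expected to use, had medians of 4.12 (control) and 4.24 (light damage), and 95% of these 1169 genes lay at or under 5.74 and 5.89. On both arrays 6 of 10 genes of G2 and M phase lay at or under those bounds, among them Mki67 (4.65 and 5.05), Top2a (4.33 and 5.07) and Bub1 (3.94 and 4.57). In contrast, 2 of 13 S phase genes (Rrm2 and Tyms) and 1 of 8 G1 genes (Ccne2) lay that low. Over all 20412 genes with a value, 6268 did. Probes bind with different strength, so these levels do not rank RNA amounts. For genes this low a difference may not be detectable.

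The D-type cyclins, which couple mitogen signals to the cycle, stood higher after light damage. Ccnd3 had levels of 8.01 (control) and 9.39 (light damage), and the difference was 1.09 ± 0.94 (SD over 6 probe sets), or 2.13-fold. Its probe sets ran from −0.30 to 2.39, with 5 of 6 above 0. Ccnd1 went from 8.78 to 9.17, with a difference of 0.58 ± 0.34 (8 probe sets), or 1.49-fold. All 8 of its probe sets lay above 0, from 0.09 to 1.13, so that the spread was the narrower of the pair although the step was smaller. Ccnd2 went from 7.19 to 7.86, with a difference of 0.33 ± 0.59 (10 probe sets), which is within its spread. Over the 3 cyclins 21 of 24 probe sets lay above 0, where 88564 of 188940 did over all genes. Each of the 3 was above 0 under every processing tried. Read from its probe set of highest level alone, Ccnd3 was at 0.88, under the step of 1.

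The CDKs of G1 differed little. Cdk4, the partner of D cyclins in most tissues, stood at −0.11 ± 0.65 (10 probe sets), its levels of 8.33 and 8.45 differing in the opposite direction. Cdk6, its close relative, stood at −0.20 ± 0.60 (8 probe sets), with levels of 7.95 and 7.81. Cdk2, the kinase that cyclins E and A activate, stood at −0.21 ± 0.84 (11 probe sets), from 7.19 to 6.99. All 3 kinases were within their spread, and 10 of their 29 probe sets lay above 0.

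Cyclin E genes, which E2F factors switch on at the end of G1, differed little. Ccne1 was at 0.23 ± 0.62 (12 probe sets), with levels of 6.01 and 6.35. Ccne2 was at 0.13 ± 1.10 (11 probe sets), with levels of 5.33 and 5.22 that lie within the range of the receptor genes. The 8 G1 genes (D and E cyclins with Cdk4, Cdk6 and Cdk2) thus had a median of 0.18 (SD over genes 0.44), 5 above 0 and 3 below.

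CDK inhibitors had the widest range of any role. Cdkn2c, an inhibitor of Cdk4 and Cdk6 of the INK4 family, went from 6.69 to 5.27. Its difference was −1.15 ± 0.29, or 2.22-fold lower, and all 4 probe sets lay below 0, from −1.55 to −0.93. The light damage level lay under 5.89, the receptor gene bound of that array, so the size of the step is uncertain. An offset of 32 on the linear scale, which shrinks differences at low signal, brought the difference of Cdkn2c to −0.87. Cdkn2d, another INK4 inhibitor, known for keeping neurons and sensory cells out of the cycle, went from 7.43 to 8.25. Its difference was 0.72 ± 0.24, or 1.65-fold higher, with all 4 probe sets above 0, from 0.32 to 0.85. The probe sets of these relatives did not overlap. Cdkn2a, which encodes an INK4 inhibitor and the p53 activator ARF, was at 0.23 ± 0.82 (6 probe sets), and its neighbour Cdkn2b was at 0.15 ± 0.51 (2 probe sets).

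The Cip/Kip inhibitors measured here stayed within their spread. Cdkn1b, a main brake on proliferation of retinal glia, had levels of 10.2 and 9.98 and a difference of −0.21 ± 0.39, with 6 of 7 probe sets below 0. Cdkn1c, an imprinted gene of the same family, had levels of 8.29 and 7.67 and a difference of −0.31 ± 0.63, but its probe set of highest level stood at 0.80. Cdkn1a, the p53 target left out by the rule, was at 0.96 ± 1.12 over 6 probe sets, from 5.12 to 6.26. Of the genes that share only the name, Cdkn2aip, which encodes a binding partner of ARF, was at 0.07 ± 0.39, Cdkn2aipnl was at −0.48 ± 0.73 (0.95 in its probe set of highest level), and Cdkn3, a phosphatase that acts on CDKs, had levels of 3.98 and 4.27 under the minimum.

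**Figure D2:**
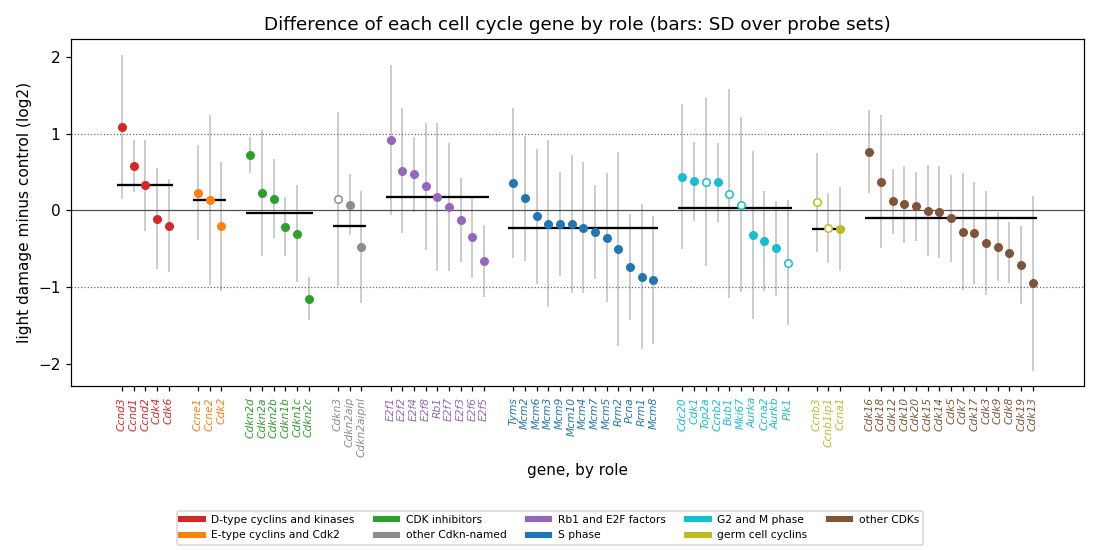
Light damage minus control (log2, y axis) for each gene, grouped by role, with bars for the SD over probe sets, black lines for the median of genes with a mean level of at least 5, open points for genes under it, and dotted lines at −1 and 1. Ccnd3 lies above 1 and Cdkn2c below −1, and 11 of 13 S phase genes lie below 0.

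Rb1, the brake that D cyclins release, was nearly level, at 0.17 ± 0.96 over 28 probe sets, with levels of 9.86 and 9.98. Among the E2F factors, which Rb1 and its relatives bind, the activator E2f1 had the largest positive value, 0.92 ± 0.98 over 11 probe sets, of which 8 lay above 0. Its levels were 5.99 and 6.37, and with the offset of 32 the difference was 0.55. E2f2, an activator too, was at 0.52 ± 0.81 (9 probe sets, levels 6.32 and 6.30), and the third activator, E2f3, at −0.13 ± 0.55 (8 probe sets). The factors that act mainly as repressors in resting cells went apart. E2f4 stood at 0.47 ± 0.49 (levels 7.74 and 8.27), although its probe set of highest level was at −0.33, and E2f5 at −0.66 ± 0.47 (levels 7.87 and 7.28), with all 8 probe sets below 0. E2f6, a repressor that works without Rb1, was at −0.35 ± 0.53. The atypical factors E2f7 and E2f8, which are made late in the cycle, were at 0.04 ± 0.84 (levels 6.04 and 5.49) and 0.31 ± 0.83. On both arrays E2f8 lay within the range of the receptor genes. The 9 genes had a median of 0.17, with 6 above 0 and 3 below.

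S phase genes leaned the other way from the D cyclins. Of 13 genes, 11 lay below 0, where 52.7% of all genes did, and their median was −0.23 (SD over genes 0.37). None of them reached −1 or 1, and 4 of the 13 were lower by 0.5 or more, beside the 17.2% of all genes. Mcm8, a helicase of DNA repair and meiosis, went from 6.64 to 5.48, with a difference of −0.91 ± 0.84 and 18 of 20 probe sets below 0. Its light damage level lay under the receptor gene bound of 5.89. Rrm1, the large subunit of the ribonucleotide reductase that makes deoxynucleotides, went from 8.40 to 7.47, with −0.86 ± 0.95 and 16 of 20 probe sets below 0. Pcna, the sliding clamp of DNA polymerases, which also serves repair, went from 9.67 to 9.03, with −0.73 ± 0.69 and 7 of 10 probe sets below 0. Mcm8 and Pcna exceeded their spread, and Rrm1 did not, but in the probe set of highest level Mcm8 stood at −0.12, Pcna at −1.20 and Rrm1 at −1.70.

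The rest of the S phase genes differed by less than their probe sets did. The 6 subunits of the replicative helicase, Mcm2 to Mcm7, ran from −0.35 ± 0.84 (Mcm5) to 0.16 ± 0.81 (Mcm2). Their median was −0.20. Of their 95 probe sets 51 lay below 0 (53.7%), close to the 52.9% for the probe sets of all genes. By probe set these 6 genes thus showed hardly any lean. Over all 13 S phase genes 118 of 193 probe sets lay below 0 (61.1%). Mcm9, the partner of Mcm8, stood at −0.18 ± 0.68, and Mcm10, which starts helicase firing, at −0.18 ± 0.90. Rrm2, the small reductase subunit whose RNA peaks in S phase, stood at −0.51 ± 1.26 (levels 5.17 and 5.46), and thymidylate synthase, Tyms, at 0.35 ± 0.98 over 3 probe sets. For Mcm6, Mcm9, Mcm10 and Rrm2 the difference was below 0 while the level on the light damage array was the higher, and for Mcm2 the reverse held (levels 7.23 and 6.84), since the median of the differences is not the difference of the medians. By level alone, 8 of 13 S phase genes were lower after light damage.

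The genes of G2 and M phase showed no common direction. Of the 6 at a mean level of 5 or more, Cdc20 (0.44 ± 0.94), an activator of the anaphase-promoting complex, Cdk1 (0.38 ± 0.51), the mitotic kinase, and Ccnb2 (0.37 ± 0.51), a B-type cyclin, lay above 0. Aurka (−0.32 ± 1.09) and Aurkb (−0.50 ± 0.62), kinases of the spindle and of chromosome segregation, and Ccna2 (−0.40 ± 0.65), the cyclin of S phase and G2, lay below. All 6 were within their spread, and their median was 0.02 (SD over genes 0.44), which fell on the other side of 0 with the offset of 32 (−0.01). Read from its probe set of highest level Ccna2 stood at 0.82, Aurka at 0.61 and Cdc20 at 1.37. Under the minimum level, the proliferation marker Mki67 stood at 0.07 ± 1.14, with 8 of 16 probe sets on each side of 0, topoisomerase Top2a at 0.37 ± 1.09, the checkpoint kinase Bub1 at 0.22 ± 1.36 and the Polo-like kinase Plk1 at −0.68 ± 0.82. Ccnb2 and Cdk1 are also among the genes within the range of receptor genes.

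G1 genes exceeded those of S, G2 and M phase by 0.41 on the log2 scale. The medians were 0.18 over 8 genes and −0.23 over 19. Of the 19, 13 were S phase genes, whose own median was also −0.23. The 6 of G2 and M phase had a median of 0.02, so the gap was mainly one to S phase. The pooled SD over genes was 0.43, so the phases overlapped. Within G1 the D-type cyclins had a median of 0.58 and Cdk4, Cdk6 and Cdk2 one of −0.20, a split that was not among the listed groups. As listed, the 5 D-type cyclins and kinases (with Cdk4 and Cdk6) had a median of 0.33 (SD over genes 0.53). When each gene was read from its probe set of highest level, the gap was 0.05, with medians of 0.07 (G1), −0.12 (S phase) and 0.71 (G2 and M phase) and with 8 of 13 S phase genes below 0. Widening G1 by Rb1, E2f1 to E2f5 and the inhibitors left a gap of 0.39. Over all genes the difference moved with position in the genome: where 0 to 8 protein-coding genes lay within 500 kb of a gene, genes had a median of −0.16 and where 28 to 71 did, one of 0.10. S phase genes had a median of 8 such neighbours, G1 genes 12 and all genes 15. The part of this in the gap was not tested.

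**Figure D3:**
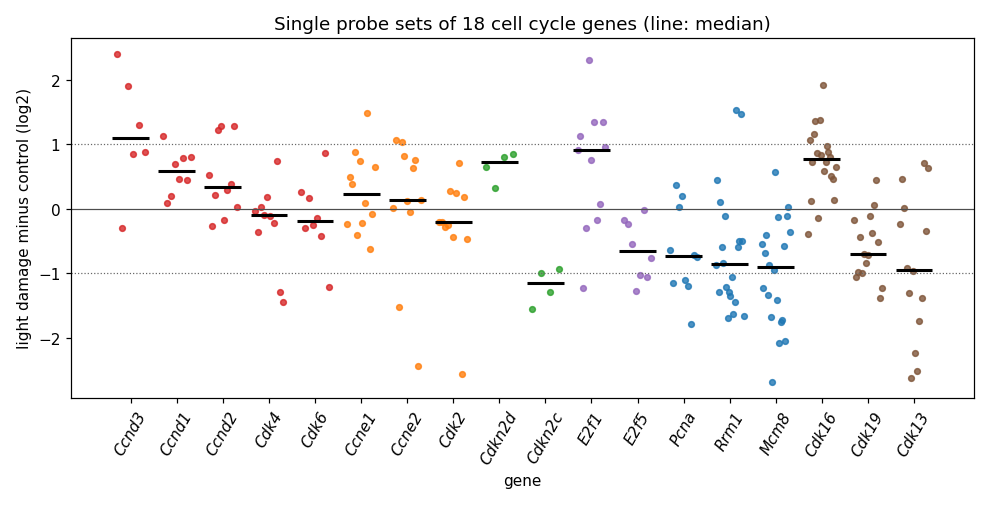
Light damage minus control (log2, y axis) of every probe set of 18 genes, with the gene's median as a black line and dotted lines at −1 and 1. All points of Ccnd1 and Cdkn2d lie above 0 and all of Cdkn2c and E2f5 below it, whereas those of Rrm1 and Cdk13 lie on both sides.

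**Figure D4:**
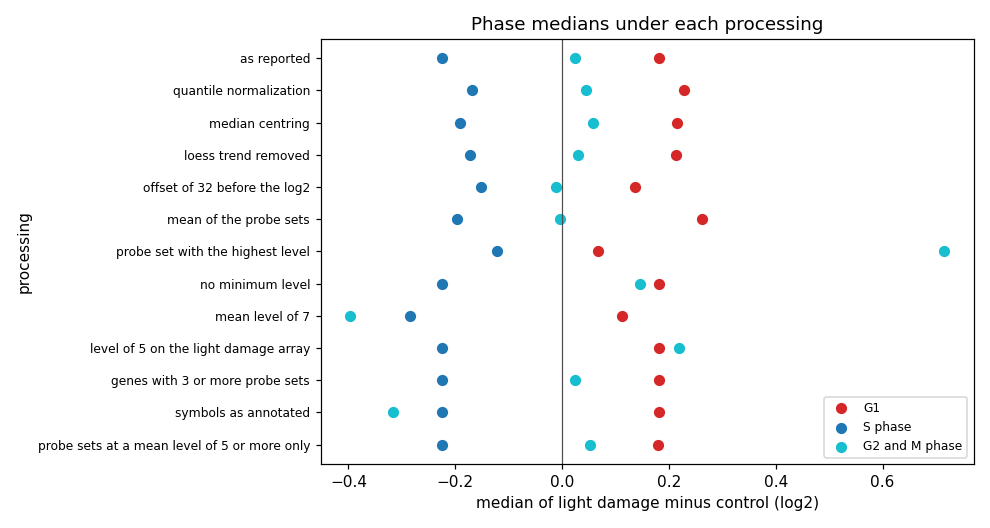
Median difference (log2, x axis) of G1, S phase and G2 and M phase genes under each processing (y axis). S phase stays below 0 and G1 above 0 in every row, from −0.28 to −0.12 and from 0.07 to 0.26, while G2 and M phase runs from −0.40 to 0.71.

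The remaining 15 CDKs mostly have other tasks, and their median was −0.10, with 10 below 0 and 5 above. By 0.5 or more 3 of the 15 were lower, near the 17.2% of all genes, and none was lower by 1. Cdk8 and Cdk19 are the kinases of the Mediator complex, which bridges transcription factors to RNA polymerase. They were at −0.55 ± 0.40 (levels 9.86 and 8.75) and −0.71 ± 0.51 (levels 9.89 and 9.58). Of their 22 probe sets 19 lay below 0, where 52.9% of the probe sets of all genes did. Cdk9, the kinase that releases paused polymerase, was at −0.47 ± 0.45, with 6 of 7 probe sets below 0. Cdk13, a kinase of transcript elongation, had the lowest value of the role, −0.95 ± 1.14, but its 14 probe sets ran from −2.63 to 0.71. Its relative Cdk12 was at 0.12 ± 0.42 and the CDK-activating kinase Cdk7 at −0.28 ± 0.76. These 6 kinases were grouped after their values were seen, so a count of their signs carries no weight.

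Kinases of the branches around Cdk5 and Cdk16 were mixed. Cdk16 was the highest, from 8.66 to 9.12, with a difference of 0.76 ± 0.54 and 18 of 20 probe sets above 0, but its probe set of highest level was at 0.13. Its relatives Cdk17 and Cdk18 were at −0.29 ± 0.66 and 0.37 ± 0.87. Cdk5, a kinase of neurons that does not drive the cycle, was at −0.10 ± 0.57, and Cdk14 and Cdk15 at −0.03 ± 0.60 and −0.01 ± 0.59. Cdk10 (0.08 ± 0.50), Cdk20 (0.05 ± 0.45) and Cdk3 (−0.42 ± 0.68) were within their spread, and Cdk3 was at 0.61 in its probe set of highest level. The germ cell cyclins Ccna1 (−0.24 ± 0.54) and Ccnb3 (0.11 ± 0.65) and the meiotic gene Ccnb1ip1 (−0.23 ± 0.46) had levels from 3.57 to 5.18.

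In all, 11 of the 60 genes differed by more than the SD of their probe sets, where 22% of all genes with 2 or more probe sets did. These were Ccnd1, Ccnd3, Cdkn2d and Cdk16 above 0 and Cdkn2c, E2f5, Mcm8, Pcna, Cdk8, Cdk9 and Cdk19 below. Of 58 genes with 4 or more probe sets, 4 had all of them on the same side of 0 (Ccnd1, Cdkn2d, Cdkn2c and E2f5), where 8.75% of all genes did. Both shares are near those of the whole array.

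Other genes of the same processes, from lists chosen by function, were set beside these. Of 33 further replication genes with a mean level of at least 5 (37 had a value), none was higher by 1 or more, 2 were lower, and 26 lay below 0, beside the 52.7% of all genes, with a median of −0.27. Both lower genes start DNA synthesis: Pola1, the catalytic subunit of DNA polymerase alpha (−1.24 ± 1.16, 30 of 36 probe sets below 0), and Orc2, a subunit of the origin recognition complex (−1.23 ± 1.07, 16 of 20). The primase Prim1, at −0.84, did not reach the step of 1. Of 25 further mitosis genes (36 had a value), none was higher by 1 or more and 1 was lower, Mad2l1 of the spindle checkpoint (−1.73 ± 0.72, 8 of 8 probe sets), and the median was 0.08. Replication genes outside the chosen names leaned below 0 like those within, in lists written with these data known. On both arrays 21 of the 36 mitosis genes lay at or under the receptor gene bounds, against 8 of the 37 replication genes. A lean of the mitosis genes may therefore not be detectable. At a mean level of 7 the medians were −0.45 (mitosis) and −0.53 (replication), beside −0.12 for all genes.

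Of 8 pocket proteins, E2F partners and other subunits of the DREAM complex, 7 lay below 0, where 52.7% of all genes did, with a median of −0.43. Lin52, a DREAM subunit, was the 1 gene lower by 1 or more (−1.18, 1 probe set), where 3.47% of all genes were. Among 10 antiproliferative genes none passed the step of 1 and the median was 0.23, with Gas1, a brake on entry into S phase, at 0.91 and Btg2, a p53 target, at 0.76. Of 7 further regulators of G1 and of entry into S phase, Myc alone was higher by 1 or more, where 1.75% of all genes were. Myc stood at 1.41 ± 0.67 with all 3 probe sets above 0 and levels of 4.92 and 7.47. Mycl was at 0.48 and Skp2, which marks Cdkn1b for degradation, at −0.39.

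Markers of MG and of other retinal cells were read on the same arrays. All 15 MG markers lay within 1 (median levels 11.4 and 11.2), as did 15671 of all 16534 genes. By 0.5 or more, 3 of the 15 were higher and 3 lower, where 11% and 17.2% of all genes were. Sox9 stood at 0.88 ± 0.86, Sox2 at −0.86 ± 0.47 and Rlbp1, whose promoter drives the reporter, at −0.67 ± 0.46. All 17 rod markers lay below 0, with a median of −1.04, control levels from 8.63 to 13.9 and light damage levels from 7.84 to 13.5. All 9 endothelial markers that reached the minimum level lay above 0, where 7771 of all 16534 genes did, with a median of 0.44. Their control levels ran from 5.46 to 11.9 and their light damage levels from 5.58 to 12.2. The median levels were 5.75 and 6.17, near the receptor gene bounds of 5.74 and 5.89. Of 10 endothelial markers with a value, 3 lay at or under those bounds on both arrays. Of the 9, 2 were higher by 0.5 or more, where 11% of all genes were. Of 13 microglial markers 7 lay above 0 and 6 below, with a median of 0.03 (from 4.71 to 7.0 and from 5.21 to 7.69). Cd68 alone was higher by 1 or more, where 1.75% of all genes were, and none was lower by 1. It stood at 1.45 ± 1.02 with all 8 probe sets above 0, while Ctss stood at −0.79 ± 0.48 with 8 of 9 below. In such pooled samples fewer cells of a type and less RNA per cell cannot be told apart, and the part of these cells in the values of the cell cycle genes was not tested.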

How the data were processed

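RNA of sorted MG was hybridised to Affymetrix Mouse Gene ST arrays, 1 for undamaged and 1 for light damaged retinas, with biotin as the label (the labelling text also mentions Cy3). The deposited values are log2 levels per probe set at exon level, which the authors normalized with Affymetrix Power Tools and examined in the TM4 Multi-Experiment Viewer. Neither versions nor the background correction are stated in the sources read. The medians of the columns were 7.02 and 6.99. Of 241576 probe sets 87.8% carried a single gene symbol, and the others were left out. Of 20422 symbols, 2689 were updated to RefSeq names (GRCm38.p6) by synonym where that was unambiguous, and 107 were kept as given.

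A gene's difference was the median over probe sets of light damage minus control. Genes were counted at a mean level of 5 or more. Any member could be named, and of other lists up to 3 genes with the largest difference, beside Cdkn1a and Myc. The members and lists were chosen with earlier results of these data known. Promoter words, the subgroups of CDKs and the counts against the SD of the probe sets were chosen after seeing the data. Python 3.11.15, numpy 2.4.6, pandas 2.3.3 and statsmodels 0.14.6 were used, and the steps were tested on simulated data. The planted shifts were larger than 1, in genes at least 1 above the minimum level with 3 or more probe sets. Smaller differences, and genes near the minimum level, were not covered by that check. With 1 array per condition no test was run. Some listed genes are not reported here. Alternatives covered scaling, an offset of 32, the summary of probe sets (mean or highest level), minimum levels, at least 3 probe sets, thresholds of 0.5 and 2, annotated symbols and wider phases.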

Additional observations from a re-analysis of the deposited data

How the results depend on the processing

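Under all 12 alternatives that changed levels, scaling, probe sets or names, S phase genes kept a median below 0 (from −0.28 to −0.12). Under the same alternatives G1 genes kept one above 0 (from 0.07 to 0.26). The gap between G1 and the pooled S, G2 and M phase genes ran from 0.05 to 0.46 over 14 alternatives. The median of G2 and M phase genes was 0.71 with the probe set of highest level and −0.40 at a mean level of 7, where 1 gene was left. It was −0.32 with symbols as annotated, which lack Cdk1. At that level of 7 the other mitosis genes had a median of −0.45. The count of cell cycle genes lower by 1 or more, 1 as reported, was 0 with the offset of 32 and at a mean level of 7, 2 with the mean of the probe sets and 4 with the probe set of highest level. With a threshold of 0.5 there were 6 higher and 9 lower genes, with 10 lower among other replication genes and 3 among other mitosis genes, and with a threshold of 2 all these counts were 0. Other replication genes lower by 1 or more numbered 1 with the offset, at a mean level of 7 or with symbols as annotated, and 3 with the mean of the probe sets, with the probe set of highest level or with probe sets at a mean level of 5 or more only, an alternative chosen after seeing the data. With that last alternative 9 of 13 S phase genes lay below 0. Among single genes, 425 values stayed within the SD of the probe sets and 9 moved by more, all with the probe set of highest level, and of these Ccna2, Cdk3, Cdkn1c, Cdkn2aip, Cdkn2aipnl and E2f4 changed sign. Staying within the SD did not mean keeping the sign. With that probe set Aurka, Ccne1, Cdk5, Cdk10, Cdk15, Cdk18, Cdkn2b, E2f8, Rb1, Mcm5, Mcm9 and Rrm2 changed sign too, within their SD. The 1 gene higher by 1 or more with that probe set was Cdc20 and not Ccnd3. The cause was not tested. Over all genes, 923 were higher and 1232 lower by 1 or more with the probe set of highest level, and 155 and 309 with the offset, beside 289 and 574 as reported. Scaling moved the median of all genes by less than 0.1. Signals near those of receptor genes limit what the mitotic genes can show. No paired analysis was possible because there was 1 array per condition.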

Other observations

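Some probe sets are annotated to a cell cycle gene together with a neighbour or copy, and they entered no gene value. The 2 shared by Ccna2 and Exosc9 differed by −0.75 and −0.66, the 5 shared by Ccne2 and Ints8 ran from −1.22 to 0.54 with a median of −0.35, and the 3 shared by Tyms and the pseudogene Tyms-ps ran from −0.19 to 2.08 with a median of −0.12.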
